A study of Mus musculus with 18 samples.

Results

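The cytosolic ribosomal protein genes were taken as the protein-coding genes of the deposited count table whose symbol begins with Rpl or Rps, or is Rplp0, Rplp1, Rplp2 or Rpsa, with a number and at most a short suffix. The rule found 82 of the 29112 genes listed. They comprised 43 genes of the large subunit, 3 genes of the P stalk on the large subunit, 31 genes of the small subunit and 5 paralogs (Rpl3l, Rpl7l1, Rpl10l, Rpl22l1 and Rps27l). Of the 82 genes, 80 passed the filter on low counts and were tested. Rpl3l, with 63 reads over all 18 libraries, and Rpl10l, with 1 read, did not pass. The pattern also requires that a symbol ends after its number and suffix, so ribosomal S6 kinases were left out. Mitochondrial ribosomal proteins were left out because their symbols begin with Mrp. Pseudogene rows were left out because only protein-coding genes were taken.

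The cytosolic ribosome is built from a small subunit, which reads the mRNA, and a large subunit, which joins amino acids into protein. Its proteins are needed in matched amounts, and their mRNAs begin with a short run of pyrimidines, the 5′ terminal oligopyrimidine (TOP) tract, through which LARP1 and the mTOR pathway control their translation and stability. In cardiomyocytes, ribosome supply is known to increase when the cells grow.

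RNA was measured in cells labelled HL-1, an immortalised line of mouse atrial cardiomyocytes, in 6 groups of 3 libraries. The mimic cells received miR-200a-3p mimics in high glucose, and the mimic-control cells received the negative control of the mimics in high glucose. The inhibitor cells received the miR-200a-3p inhibitor in high glucose, and the inhibitor-control cells received its negative control in high glucose. The high-glucose cells were untransfected, and the vehicle cells had neither high glucose nor transfection, as far as the labels say. A mimic is a synthetic duplex that acts as the microRNA, and an inhibitor is an oligonucleotide that binds it. No allele of the line was changed, as far as the labels say. The mature microRNA is not read in mRNA libraries, so the action of either reagent was not checked here. Transfected cells were harvested at 48 h. The sources used here give neither the glucose concentrations nor how long cells were kept in high glucose, and do not say if untransfected cells met the transfection reagent. Nothing in the labels says that the 3 libraries of a group are separate cultures. The p-values then measure only how far these libraries spread, which may be technical.

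The mature miR-200a-3p sequence is shown because it defines both reagents, with its seed (bases 2 to 8) in capitals, as given by RefSeq.
miR-200a-3p: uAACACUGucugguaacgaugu

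Library totals ran from 33655916 to 37928790 reads, so depth was similar in all groups. Defining markers of an atrial cardiomyocyte were at or near 0: Nppa, the atrial natriuretic peptide, had a read in 2 of 18 libraries, and Myh6, the main cardiac myosin heavy chain of the mouse, reached at most 0.204 CPM (reads scaled to library size, here without TMM). Tnnt2, a cardiac troponin, reached 14.2 to 79.3 CPM and Gata4, a cardiac transcription factor, 8.31 to 13.1 CPM. Summed over 11 cardiomyocyte markers, the level was 31.8 to 37.8 CPM in the mimic and mimic-control libraries, 78.3 to 97.4 CPM in the inhibitor and inhibitor-control libraries and 53.5 to 69.8 CPM in the untransfected libraries. Tnnt2 alone held 14.2 to 22.9 CPM, 61.1 to 79.3 CPM and 38.8 to 50.9 CPM of these sums, so they mainly follow that gene. A fibroblast marker sum was 1050 to 1093 CPM, 2410 to 2584 CPM and 10571 to 12080 CPM over the same sets of libraries. Replicate 2 of the mimic cells stood apart by macrophage transcripts, with 857 CPM of Lyz2 (lysozyme) against 13.4 to 18.05 CPM in the other 17 libraries. The part of these differences in the results below was not tested, and fewer cells of a type cannot be told apart from less RNA per cell.

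Levels between genes were compared as FPKM, the authors' fragments scaled to transcript length and depth, averaged over 18 libraries. The median of the 80 tested genes was 179 FPKM, and 50 of the 82 genes averaged at least 100 FPKM. The highest was Rpl23a, which sits beside the opening of the peptide exit tunnel, at 2062 FPKM (1769 to 2511 FPKM in single libraries). Next came Rpl19 at 1585 FPKM and Rplp1, a protein of the P stalk that recruits elongation factors, at 1056 FPKM. Rps15, a small-subunit protein near the decoding site, followed at 1048 FPKM, and Rpl14 at 793 FPKM. In single libraries Rplp1 ranged over 784 to 1534 FPKM and Rps15 over 905 to 1197 FPKM, so these neighbours in the order overlapped.

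At the low end, Rpl10l, a paralog of Rpl10 known from the testis, averaged 0.0017 FPKM. Rpl3l, the paralog of Rpl3 known from heart and skeletal muscle, averaged 0.0589 FPKM, against 266 FPKM for Rpl3. No library held more than 0.233 CPM of Rpl3l, where 3 reads correspond to 0.0791 to 0.0891 CPM. Rps10, a core small-subunit protein that is ubiquitinated on stalled ribosomes, averaged 0.448 FPKM and held only 9 to 87 reads per library. Rpl22l1 averaged 2.80 FPKM and Rpl29 10.98 FPKM. The coding sequence of Rps10 (gene at chr17:27849390-27855643, GRCm39) had 2 further copies of at least 95% identity, and 100% of its bases were found elsewhere in the genome.

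Such copies were the rule among the members. A copy of at least 95% identity over at least 80% of the coding sequence was found for 72 of 82 genes, with a median of 5 copies and a highest value of 56 for Rpl21 (chr5:146769699-146776408). In a stricter search, for stretches of at least 100 bases at 98% identity or more, the whole coding sequence of 57 genes was matched elsewhere. By that measure 15 genes had no matched stretch, among them Rpl41, whose coding sequence as searched had 141 bases, the fewest of all members. A single chosen transcript of each gene was searched, so matches to its other transcripts were not counted. The authors counted uniquely mapped reads only, so the counts of most members, and comparisons of levels between members, are uncertain. Over the 77 members without paralogs, Spearman's rho between mean FPKM and the percentage of the coding sequence found elsewhere was -0.05, which is given as a description, since the points share libraries. Across the 80 tested genes the same percentage had a rho of 0.10 with the log2 fold change of mimic-control over high-glucose cells and of -0.07 with that of mimic over mimic-control cells. The largest rho was 0.18, for inhibitor-control over high-glucose cells. It was 0.06 for inhibitor-control over mimic-control, 0.02 for high-glucose over vehicle and 0.01 for inhibitor over inhibitor-control cells. For the mimic's effect minus the inhibitor's effect it was -0.11.

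**Figure D1:**
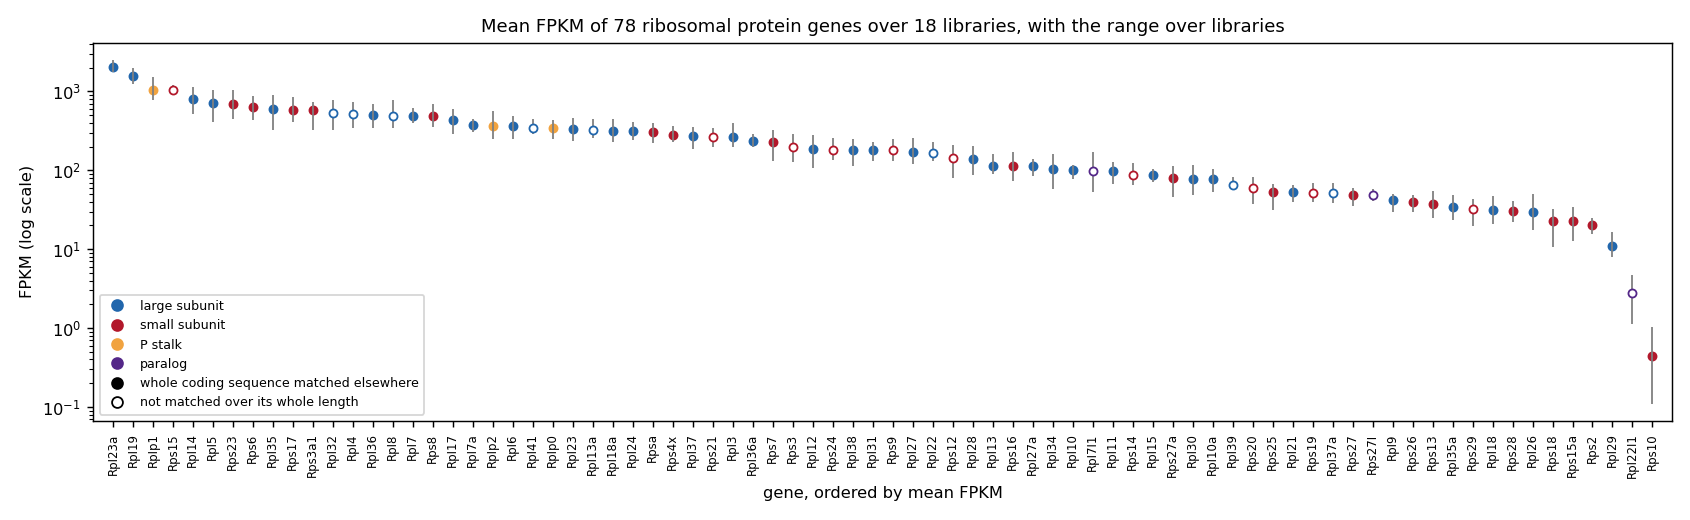
Mean FPKM on a log axis of 78 of the 80 tested ribosomal protein genes, with the range over 18 libraries as a line; filled points mark genes whose whole coding sequence is matched elsewhere in the genome by the stricter search. Rpl23a at 2062 FPKM and Rps10 at 0.448 FPKM mark the ends.

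The part of each library that came from ribosomal protein genes differed most between the transfection sets. The 82 genes took 5.11%, 4.72% and 4.82% of the reads in mimic cells and 4.57%, 4.57% and 4.595% in mimic-control cells. They took 3.72%, 3.81% and 3.79% in inhibitor cells and 3.90%, 3.78% and 3.72% in inhibitor-control cells. High-glucose cells gave 3.11%, 2.81% and 2.81%, and vehicle cells 2.97%, 3.08% and 3.16%. Every mimic and mimic-control library lay above every inhibitor and inhibitor-control library, and those lay above every untransfected library.

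In group means the share was 4.89% ± 0.202 in mimic cells, against 4.58% ± 0.0171 in mimic-control cells (SD, n = 3 each), with no overlap. It was 3.77% ± 0.0464 in inhibitor cells and 3.80% ± 0.0945 in inhibitor-control cells, and 2.91% ± 0.174 in high-glucose cells against 3.07% ± 0.0958 in vehicle cells, and both of these pairs overlapped. An exact 2-sided permutation test gave p = 0.10 for mimic over mimic-control cells, for either negative control against high-glucose cells and for the 2 negative controls, which is the smallest p that 3 against 3 libraries allow (0.15 adjusted over 6 comparisons). For inhibitor against inhibitor-control cells the exact permutation p was 0.90, and for high-glucose against vehicle cells it was 0.30 (0.36 adjusted). Without Rn18s and the mitochondrially encoded genes in the denominator, the mimic share was 4.98% and the mimic-control share 4.65%. The share was then 3.85% in inhibitor, 3.87% in inhibitor-control, 2.97% in high-glucose and 3.15% in vehicle cells. With either denominator the mimic-control share was 1.57 times the high-glucose share. The inhibitor-control share was 1.31 times the high-glucose share with all reads and 1.30 times without these genes. Rn18s, the 18S ribosomal RNA carried over into mRNA libraries, held 8739 to 10781 CPM in the mimic and mimic-control libraries, 841 to 1811 CPM in the inhibitor and inhibitor-control libraries and 9151 to 12713 CPM in the untransfected ones. Rn18s was taken out of the denominator only together with the mitochondrially encoded genes. Any other part of Rn18s in the differences in share was not tested.

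The subunits moved nearly together. Reads on large-subunit genes with the P stalk, divided by reads on small-subunit genes, gave a ratio of 2.10 ± 0.00251 in mimic cells and 2.13 ± 0.0166 in mimic-control cells. The ratio was 2.21 ± 0.0131 in inhibitor cells and 2.23 ± 0.00916 in inhibitor-control cells. High-glucose cells had 2.18 ± 0.00611 and vehicle cells 2.21 ± 0.0335 (SD, n = 3 in every group). No pair of groups compared overlapped, each at the smallest exact permutation p of 0.10, and the differences were at most 0.10.

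**Figure D2:**
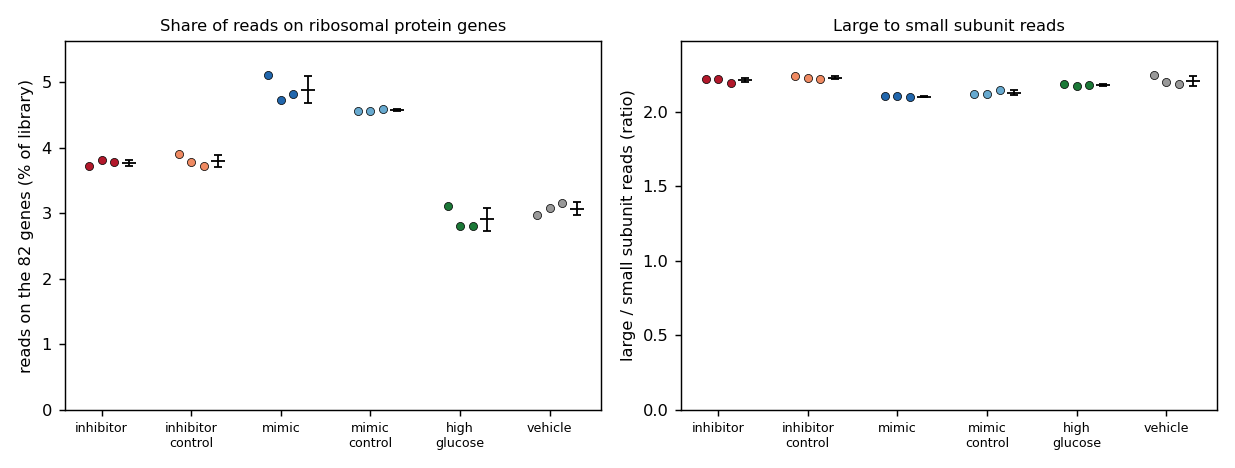
Share of each library's reads on ribosomal protein genes in percent (left) and the ratio of large-subunit to small-subunit reads (right), 1 point per library, with the mean and SD of 3 libraries per group. The shares run from 2.81% to 5.11%, and the mimic and mimic-control libraries lie above all others.

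The first comparison addresses what added miR-200a-3p does in high glucose. A change was called at an adjusted p under 0.05 in edgeR's quasi-likelihood test with Benjamini-Hochberg adjustment over 15074 genes, after TMM scaling, and levels below are CPM on that scale. In mimic against mimic-control cells, 9 of 80 members rose and 10 fell, where 15.8% of all genes tested rose and 18% fell. The members' share of calls was thus near or below the background, their median log2 fold change was -0.00, and that of all genes was 0.00. By class, 7 of 43 large-subunit genes rose and 7 fell, 1 of 31 small-subunit genes rose and 2 fell, none of the 3 P stalk genes was called, and of the 3 paralogs tested 1 rose and 1 fell.

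Rpl22l1, a paralog that can stand in for Rpl22, had 6.47, 6.82 and 5.93 CPM in mimic cells, against 4.75, 4.83 and 4.42 CPM in mimic-control cells (log2 fold change 0.46, SE 0.11, adjusted p = 0.00472). All 3 mimic libraries lay above all 3 control libraries. Rpl22, which represses its paralog in mouse cells, had 701, 624 and 639 CPM in mimic cells and 555, 556 and 569.8 CPM in mimic-control cells (log2 fold change 0.23, SE 0.04, adjusted p = 9.18e-04). Both members of the pair were thus higher with the mimic. Rpl39, a very small protein that lines the exit tunnel, had 126, 110.5 and 124 CPM in mimic cells, against 96.8, 95.8 and 98.6 CPM in mimic-control cells (log2 fold change 0.31, SE 0.05, adjusted p = 2.02e-04). Rpl36a, at the exit site for tRNA, had 507, 426 and 457 CPM in mimic cells and 365, 378 and 406 CPM in mimic-control cells (log2 fold change 0.27, SE 0.06, adjusted p = 0.00188). For these 2 genes, too, the groups were apart.

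Rpl26, which lies by the tunnel exit and also binds p53 mRNA in human cells, had 59.5, 74.4 and 59.2 CPM in mimic cells, against 51.6, 56.3 and 50.1 CPM in mimic-control cells (log2 fold change 0.29, SE 0.10, adjusted p = 0.0306). The groups did not overlap, but replicate 2 stood above the other mimic libraries, and the call was lost without mimic replicate 2 or without mimic-control replicate 1 or 3, with an adjusted p of up to 0.189. Rps24, a small-subunit protein altered in some families with Diamond-Blackfan anaemia, was the 1 small-subunit gene that rose, with 1728, 1508 and 1696 CPM in mimic cells and 1358, 1433 and 1402 CPM in mimic-control cells (log2 fold change 0.23, SE 0.06, adjusted p = 0.00510). The groups were apart. Rpl21 (log2 fold change 0.21), Rpl5 (0.17) and Rpl4 (0.13) rose less. Rpl5, which with Rpl11 carries the 5S RNA and can bind Mdm2, had 4362, 4027 and 4204 CPM in mimic cells and 3638, 3628 and 3903 CPM in mimic-control cells. Its call was lost without mimic replicate 1 or without mimic-control replicate 1 or 2, with an adjusted p of up to 0.0853.

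On the other side, Rpl8, a protein near the peptidyl transferase centre, had 981, 869 and 892 CPM in mimic cells, against 1110.4, 1172 and 1164 CPM in mimic-control cells (log2 fold change -0.33, SE 0.06, adjusted p = 5.87e-04). Every mimic library was lower than every control library. Rpl10a, the protein of the L1 stalk, had 247, 221 and 236 CPM in mimic cells and 280.5, 281 and 279 CPM in mimic-control cells (log2 fold change -0.26, SE 0.07, adjusted p = 0.0105). Rpl27 had 381, 339.9 and 326 CPM in mimic cells and 414, 394 and 440.5 CPM in mimic-control cells (log2 fold change -0.25, SE 0.06, adjusted p = 0.00294). Neither pair of groups overlapped. Rpl37a (log2 fold change -0.24, SE 0.07, adjusted p = 0.0178) and the paralog Rpl7l1, a nucleolar relative of Rpl7 (log2 fold change -0.20, SE 0.07, adjusted p = 0.0287), completed the 5 largest falls. Rpl37a lost its call without mimic replicate 3 or without mimic-control replicate 1 or 2 (adjusted p up to 0.0788), and Rpl7l1 without mimic replicate 2 or without mimic-control replicate 2 or 3 (up to 0.149).

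The number of members called lower rested on the libraries used. It was 4 without mimic replicate 2, 6 without mimic replicate 3 or mimic-control replicate 1 or 2, 5 without mimic-control replicate 3 and 15 without mimic replicate 1, against 10 with all. Scaled to library totals alone, 25 members rose, 2 fell, the median was 0.07, and Rpl10a, Rpl37a and Rpl7l1 were not called. The higher share of reads in mimic cells was thus not seen as a shift of the median on the TMM scale. With GC content and length corrected, Rpl22l1 (log2 fold change 0.19, adjusted p = 0.172), Rps24 (0.16, adjusted p = 0.0502) and Rpl10a (-0.11, adjusted p = 0.114) were not called. In that fit Rpl8 was at -0.17, Rpl27 at -0.15 and Rpl37a at -0.40, and Rpl5 was at -0.04. Of 9 macrophage markers tested, 7 were called higher in mimic than in mimic-control cells, and their sum was 48.5 to 1131 CPM in mimic and 58.3 to 63.3 CPM in mimic-control libraries. Mimic replicate 2, the library at 1131 CPM, had the lowest share of ribosomal protein reads of its group at 4.72%.

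**Figure D3:**
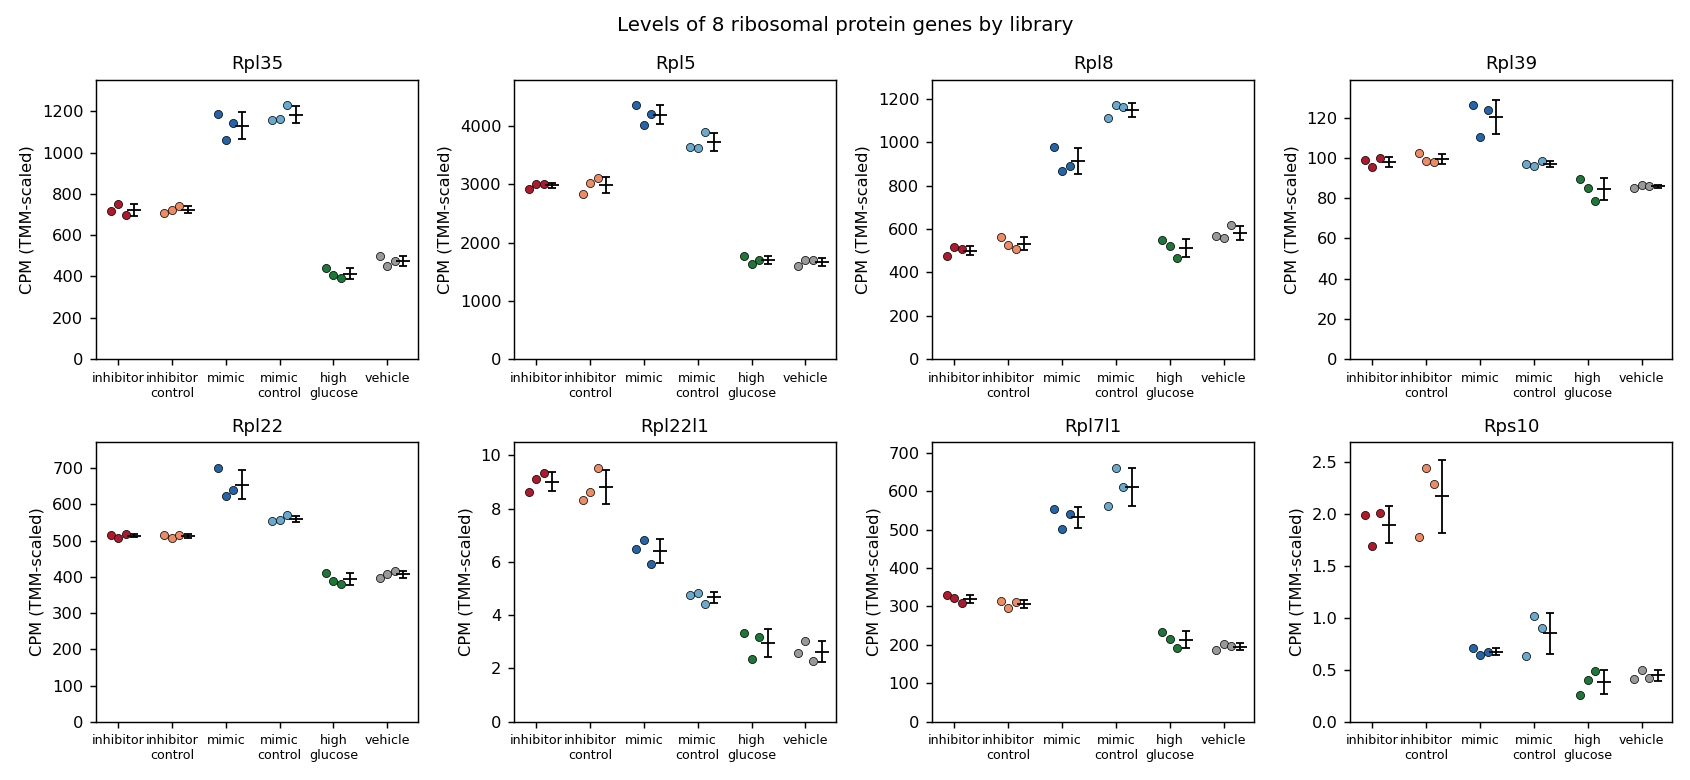
TMM-scaled CPM of 8 ribosomal protein genes, 1 point per library, with the mean and SD of 3 libraries in each of 6 groups. Rpl22l1 and Rps10 are highest in the inhibitor and inhibitor-control libraries, and Rpl35, Rpl8 and Rpl7l1 in the mimic and mimic-control libraries.

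The second comparison addresses what less miR-200a-3p activity does in high glucose. In inhibitor against inhibitor-control cells, none of the 80 members was called by edgeR, where 0.0% of all genes tested were called higher and 0.0% lower. At an unadjusted p under 0.05 edgeR found 0 members and 447 of 15074 genes, and DESeq2 called 0 members, with 281 genes under an unadjusted 0.05. The median log2 fold change of the members was -0.03 (all genes -0.00), and single members ran from -0.19 for Rps10 to 0.13 for Rpl7. Rps10 had 1.98, 1.69 and 2.004 CPM in inhibitor cells, against 1.77, 2.44 and 2.28 CPM in inhibitor-control cells (log2 fold change -0.19, SE 0.20, adjusted p = 1.0). Rpl7 had 1618, 1682 and 1631 CPM in inhibitor cells and 1657, 1482 and 1379.6 CPM in inhibitor-control cells (log2 fold change 0.13, SE 0.08, adjusted p = 1.0). At both of these ends of the range the groups overlapped. For 6 of the 80 members the groups did not overlap, and none of them was called. The same count over all genes was not taken, so the 6 are not read as a result about the members.

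Set side by side, the mimic's effect minus the inhibitor's effect was called for 5 members, all higher, and for none lower, where 4.63% of all genes were higher and 8.59% lower. These were Rpl36a at 0.35 on the log2 scale (SE 0.08, adjusted p = 0.0110), Rpl39 at 0.33 (SE 0.07, adjusted p = 0.00631), Rps24 at 0.26 (SE 0.08, adjusted p = 0.0469), Rpl22 at 0.22 (SE 0.06, adjusted p = 0.0266) and Rpl21 at 0.21 (SE 0.07, adjusted p = 0.0485). All 5 were among those that rose with the mimic. For Rpl36a the libraries held 507, 426 and 457 CPM in mimic cells against 365, 378 and 406 CPM in mimic-control cells, and 411, 429 and 459.9 CPM in inhibitor cells against 468, 437 and 466 CPM in inhibitor-control cells. The inhibitor pair thus overlapped where the mimic pair did not. Rpl22l1, with the largest rise under the mimic, had a difference of 0.43 that was not called (adjusted p = 0.0761). The number of members called higher was 2 without inhibitor replicate 1 or 3, inhibitor-control replicate 3 or any 1 mimic-control library, and 3 without vehicle replicate 1, inhibitor replicate 2, inhibitor-control replicate 1 or mimic replicate 1; the number called lower was 3 without mimic replicate 1, 2 without high-glucose replicate 3 and 1 without mimic-control replicate 1. Among the calls lost in this way were those of Rpl21, Rps24 and Rpl22, with adjusted p up to 0.130, 0.133 and 0.0909.

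Untransfected cells were compared to see what high glucose alone does. None of the 80 members rose and 11 fell, where 12% of all genes rose and 12.2% fell. The falls were small, and the share called lower was near the background. They comprised 7 large-subunit genes, 1 P stalk gene and 3 small-subunit genes, and the members' median log2 fold change was -0.05 (all genes -0.00). Of 3 epithelial markers tested 1 fell and none rose, with a sum over the 6 listed of 9.20 to 9.71 CPM in the high-glucose libraries, against 27.8 to 28.8 CPM in the vehicle libraries. Of 6 fibroblast markers tested 2 rose, and the sum over the 7 listed was 10940 to 12080 CPM in the high-glucose libraries, against 10571 to 10848 CPM in the vehicle libraries, and the part of either list in the result was not tested.

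Rpl6, a large-subunit protein, had 897, 796 and 878 CPM in high-glucose cells, against 1097, 1027 and 1002 CPM in vehicle cells (log2 fold change -0.28, SE 0.06, adjusted p = 0.00298). Rpl27 had 194, 202 and 181 CPM in high-glucose cells and 237, 222 and 237 CPM in vehicle cells (log2 fold change -0.27, SE 0.06, adjusted p = 0.00198). In both genes the high-glucose libraries were lower with no overlap. Rpl13 had 249, 243 and 227 CPM in high-glucose cells and 278, 265 and 293 CPM in vehicle cells (log2 fold change -0.22, SE 0.05, adjusted p = 0.00269), again with no overlap. Rpl28, Rplp1, Rpl35, Rpl8, Rpl14 and Rpsa fell less, between -0.21 and -0.16. Rpsa, also known as the laminin receptor precursor, had 813, 776 and 692 CPM in high-glucose cells and 846, 796 and 912 CPM in vehicle cells, which overlapped.

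The calls moved with single libraries. The number called lower was 3 without vehicle replicate 1 or high-glucose replicate 3, 5 without vehicle replicate 3, 6 without high-glucose replicate 2 and 15 without high-glucose replicate 1, and 1 member was called higher without vehicle replicate 2, high-glucose replicate 2 or 3 or mimic replicate 2. Rpsa (adjusted p up to 0.264) and Rplp1 (up to 0.228) lost their calls under most of the libraries left out.

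The larger differences lay between transfected control cells and untransfected cells in high glucose, a comparison that holds together the transfection, the control oligonucleotide and any difference in handling, which cannot be told apart. In mimic-control against high-glucose cells, 78 of 80 members rose and 1 fell, where 39.0% of all genes rose and 39.9% fell. The median log2 fold change was 0.83, against 0.01 for all genes. All 31 small-subunit genes, all 3 P stalk genes and all 3 tested paralogs rose, with 41 of 43 large-subunit genes. Among the members, 26 rose at least 2-fold, and the share of all genes at that size was not taken. Of 6 fibroblast markers tested 5 fell, with a sum of 1059 to 1093 CPM in mimic-control and 10940 to 12080 CPM in high-glucose libraries, and the part of this in the result was not tested.

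Rpl35, a protein at the tunnel exit (chr2:38891591-38895637, GRCm39), had 1159, 1161 and 1229.6 CPM in mimic-control cells, against 442, 405 and 394 CPM in high-glucose cells (log2 fold change 1.52, SE 0.06, adjusted p = 1.27e-15). Rpl7l1 had 560.2, 660.5 and 609.6 CPM in mimic-control cells and 234, 215 and 191 CPM in high-glucose cells (log2 fold change 1.52, SE 0.07, adjusted p = 3.94e-14). The lowest mimic-control library of each gene was more than 2-fold the highest high-glucose library. Rpl12, at the base of the stalk, had 902, 1018 and 1007 CPM in mimic-control cells and 414, 399 and 379.8 CPM in high-glucose cells (log2 fold change 1.30, SE 0.08, adjusted p = 3.10e-12). Rpl18 had 214, 209.7 and 205 CPM in mimic-control cells and 89.7, 86.4 and 82.98 CPM in high-glucose cells (log2 fold change 1.28, SE 0.06, adjusted p = 2.21e-14), and Rpl34 completed the 5 largest (log2 fold change 1.25, SE 0.07, adjusted p = 2.09e-12). For each of the 5 the groups were wide apart.

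The exceptions were 2 small basic proteins of the large subunit. Rpl29 fell, with 13.03, 11.98 and 11.7 CPM in mimic-control cells, against 17.5, 14.3 and 13.6 CPM in high-glucose cells (log2 fold change -0.31, SE 0.11, adjusted p = 0.0155). That call was lost without high-glucose replicate 1 or mimic-control replicate 2 or 3, with an adjusted p of up to 0.124, and then no member was called lower. Rpl41, the shortest of the ribosomal proteins, was the 1 member not called, with 387, 417 and 374 CPM in mimic-control cells and 441, 371 and 346 CPM in high-glucose cells (log2 fold change 0.02, SE 0.08, adjusted p = 0.793). Its groups overlapped. Rps27l and Rpl23a were called with groups that overlapped, at log2 fold changes of 0.18 and 0.19. With the fit corrected for GC content and length, the median was 0.69, and Rps27l was called lower at -0.23 and Rpl7 was at -0.09. Scaled to library totals alone, Rps27l was not called (0.01, adjusted p = 0.921) and Rpl29 was at -0.48.

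**Figure D4:**
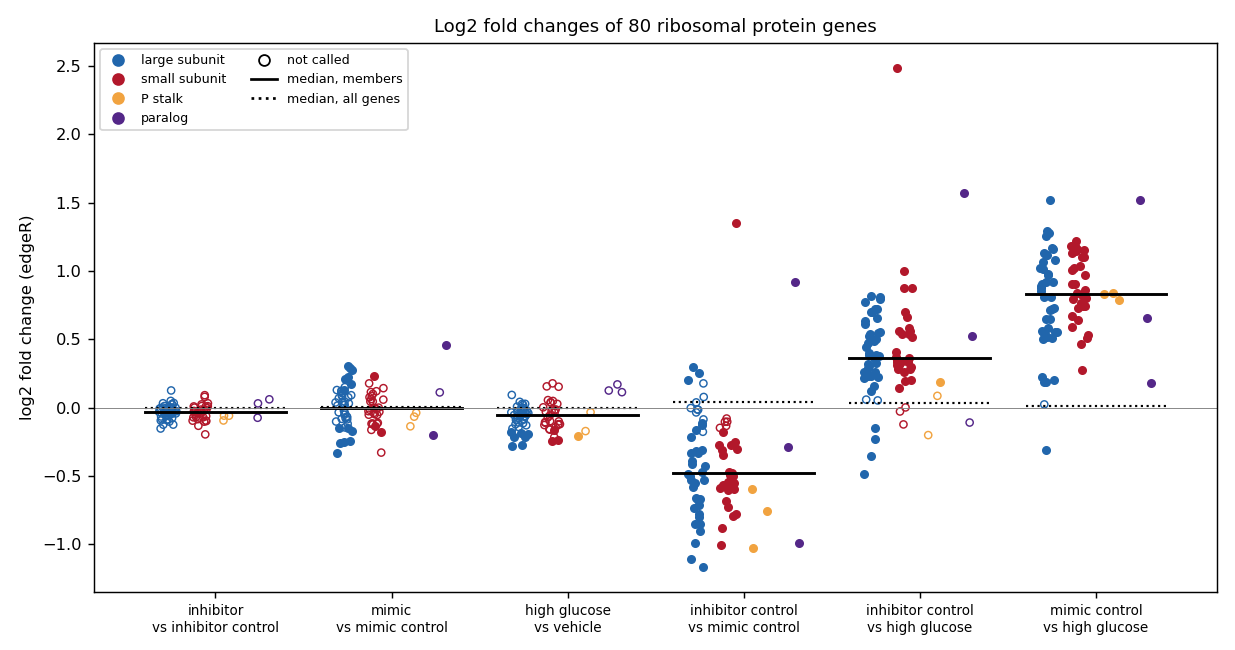
Log2 fold change of each of the 80 tested ribosomal protein genes in 6 comparisons, by class, with called genes filled; the solid line is the members' median and the dotted line that of all genes. In mimic-control over high-glucose cells the members' median is 0.83 and in inhibitor over inhibitor-control cells -0.03.

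The inhibitor-control cells were set against high-glucose cells in the same way. In inhibitor-control against high-glucose cells, 68 of 80 members rose and 4 fell, where 40.1% of all genes rose and 39.3% fell. The median log2 fold change was 0.36 (all genes 0.04). Among the members, 2 rose at least 2-fold, and the share of all genes at that size was again not taken. By class, 37 of 43 large-subunit genes rose and 4 fell, 28 of 31 small-subunit genes rose, 1 of 3 P stalk genes rose and 2 of 3 paralogs rose. Fibroblast markers again fell in 5 of 6, with a sum of 2448 to 2584 CPM in inhibitor-control libraries, and their part in the result was not tested. This comparison and the one before share the high-glucose libraries, and their values are therefore given side by side only.

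Rps10 had 1.77, 2.44 and 2.28 CPM in inhibitor-control cells, against 0.255, 0.405 and 0.487 CPM in high-glucose cells (log2 fold change 2.49, SE 0.23, adjusted p = 4.61e-09). In reads, before scaling, that was 63, 87 and 79 reads against 9, 14 and 18. Rpl22l1 had 8.32, 8.61 and 9.53 CPM in inhibitor-control cells and 3.35, 2.37 and 3.17 CPM in high-glucose cells (log2 fold change 1.57, SE 0.12, adjusted p = 1.32e-10). Both genes were at low levels, and no library of one group reached the other. Rps18, at the head of the small subunit, had 80.7, 64.8 and 62.8 CPM in inhibitor-control cells and 38.3, 32.7 and 33.2 CPM in high-glucose cells (log2 fold change 1.0, SE 0.11, adjusted p = 3.35e-08). Rps12 (log2 fold change 0.87, SE 0.06, adjusted p = 1.35e-10) and Rps27a, made as a fusion with ubiquitin (log2 fold change 0.87, SE 0.05, adjusted p = 4.40e-12), came next. With GC content and length corrected, Rpl22l1 was at 0.40 and Rps27a at 0.24, and both stayed called.

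The 4 members that fell were all of the large subunit. Rpl29 had 12.6, 9.0 and 10.9 CPM in inhibitor-control cells and 17.5, 14.3 and 13.6 CPM in high-glucose cells (log2 fold change -0.48, SE 0.11, adjusted p = 5.17e-04). Rpl28, which budding yeast lacks, had 187, 178 and 173 CPM in inhibitor-control cells and 243, 236 and 211 CPM in high-glucose cells (log2 fold change -0.36, SE 0.06, adjusted p = 2.10e-05). Neither pair overlapped. Rpl37a (log2 fold change -0.23, SE 0.08, adjusted p = 0.0108) and Rpl24 (log2 fold change -0.15, SE 0.05, adjusted p = 0.0137) fell less, and Rpl24 overlapped between groups. Both lost their calls without high-glucose replicate 1 or inhibitor-control replicate 3, which left 2 members called lower. With GC content and length corrected the median was 0.26, and Rps27 and Rpl7, which rose by 0.36 and 0.37 on the log2 scale, were at -0.07 and -0.03, and Rpl29 was not called (-0.17, adjusted p = 0.143). In that fit Rpl37a was at -0.60 and Rpl24 at -0.36, and under upper-quartile scaling Rpl24 was not called (-0.08, adjusted p = 0.200).

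The 2 negative controls differed from each other at most ribosomal protein genes. In inhibitor-control against mimic-control cells, 5 of 80 members rose and 61 fell, where 38.5% of all genes rose and 35.7% fell. The median log2 fold change was -0.48, against 0.04 for all genes. Of the large-subunit genes 3 of 43 rose and 31 fell, of the small-subunit genes 1 of 31 rose and 25 fell, all 3 P stalk genes fell, and of the 3 paralogs 1 rose and 2 fell. Of 7 cardiomyocyte markers tested 4 rose and 2 fell, with a sum of 78.3 to 97.4 CPM in inhibitor-control and 31.8 to 34.2 CPM in mimic-control libraries. Tnnt2 alone held 61.1 to 78.6 CPM and 14.2 to 15.9 CPM of these sums. Gata4 was lower in inhibitor-control libraries, at 8.34 to 9.25 CPM against 10.5 to 13.1 CPM. The part of these markers in the result was not tested.

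Rpl28 had 187, 178 and 173 CPM in inhibitor-control cells, against 419, 402 and 386 CPM in mimic-control cells (log2 fold change -1.16, SE 0.06, adjusted p = 1.14e-12). Rpl8 had 563, 527 and 508 CPM in inhibitor-control cells and 1110.4, 1172 and 1164 CPM in mimic-control cells (log2 fold change -1.11, SE 0.06, adjusted p = 3.90e-12). Rplp2, of the P stalk, had 629, 552 and 552 CPM in inhibitor-control cells and 1097, 1311 and 1128 CPM in mimic-control cells (log2 fold change -1.03, SE 0.10, adjusted p = 1.06e-08). The inhibitor-control level was 0.447-, 0.464- and 0.490-fold the mimic-control level for these 3 genes, with no overlap. Rpl7l1 (log2 fold change -0.99, SE 0.07, adjusted p = 6.50e-11) was close behind. The 5 that rose were Rps10 (log2 fold change 1.35, SE 0.21, adjusted p = 8.41e-06), Rpl22l1 (log2 fold change 0.92, SE 0.11, adjusted p = 3.16e-07), Rpl41 at 0.29, Rpl36a at 0.25 and Rpl11 at 0.20. Rpl11 lost its call without inhibitor-control replicate 1 (adjusted p = 0.0573), and Rpl36a with GC content and length corrected (0.11, adjusted p = 0.0700). In that fit Rpl22l1 was at 0.23 (adjusted p = 0.0376), Rpl41 at 0.49 and Rpl11 at 0.33. Scaled to library totals alone, the median was -0.29 and 11 members were higher, with Rpl41 at 0.48, Rpl36a at 0.44 and Rpl11 at 0.38, and that scaling moved the median of all genes by 0.22.

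**Figure D5:**
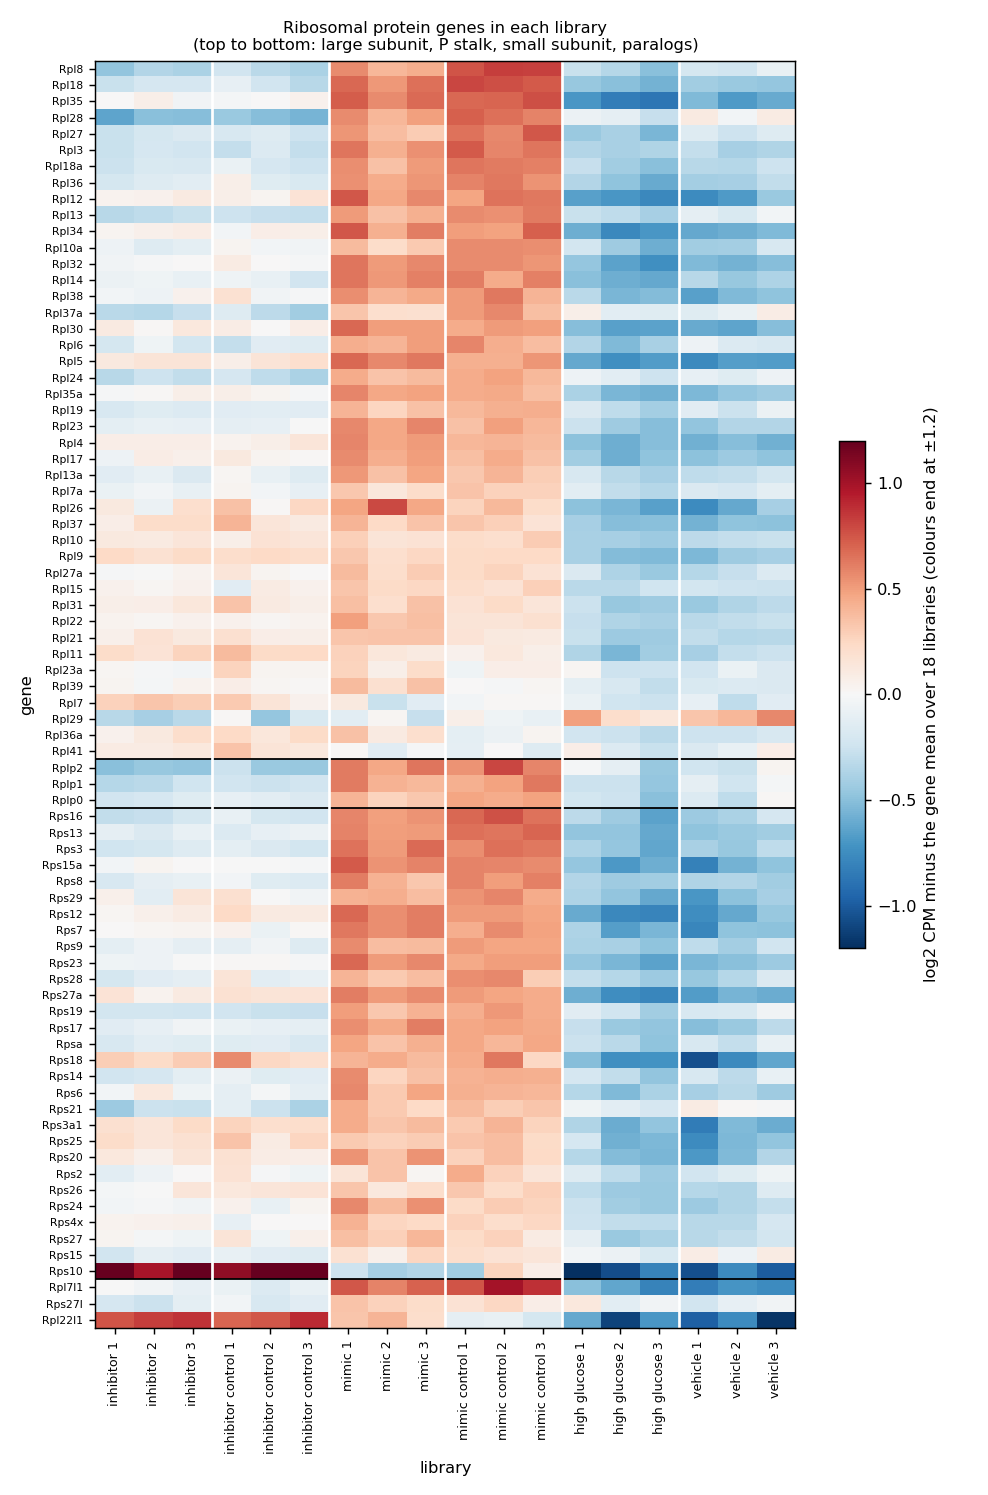
Log2 CPM of 78 of the 80 tested ribosomal protein genes in 18 libraries, each gene centred on its own mean, with colours ending at 1.2 above and below it; genes run by class and libraries by group. Most rows are high in the mimic and mimic-control libraries and low in the high-glucose and vehicle libraries.

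By role, all 3 P stalk genes rose in mimic-control over high-glucose cells and 1 of 3 rose in inhibitor-control over high-glucose cells. Rplp0, which anchors the stalk, had 791 ± 10.2 CPM in mimic-control cells and 523 ± 13.5 CPM in inhibitor-control cells, against 459 ± 47.5 CPM in high-glucose cells (SD, n = 3 each). Rplp2 had 1179 ± 116 CPM in mimic-control cells and 578 ± 44.7 CPM in inhibitor-control cells, against 664 ± 102 CPM in high-glucose cells. The log2 fold change of inhibitor-control over high-glucose cells was 0.19 for Rplp0, which rose, and 0.09 for Rplp1 and -0.20 for Rplp2, which were not called. The Rplp0 call was lost without high-glucose replicate 3 or inhibitor-control replicate 1 or 2 (adjusted p up to 0.187). With GC content and length corrected it was at 0.29. The 3 stalk genes differed between inhibitor and inhibitor-control cells by -0.06, -0.06 and -0.09, none called.

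Subunits known for binding Mdm2, and so for p53 control, are Rpl5, Rpl11 and Rpl23. Rpl11 had 281 ± 7.66 CPM in mimic-control cells and 322 ± 19.1 CPM in inhibitor-control cells, against 195 ± 13.2 CPM in high-glucose cells. It rose in both, and it was 1 of the few members with a higher level in inhibitor-control than in mimic-control cells. Rpl5 rose by 1.13 in mimic-control and by 0.81 in inhibitor-control cells on the log2 scale, and Rpl23 by 0.81 and 0.33. Rps6, the substrate of the S6 kinases that mTOR activates, rose by 0.83 and 0.34, and Rpl13a, known for silencing inflammatory transcripts in human cells, by 0.65 and 0.23. With GC content and length corrected, in inhibitor-control over high-glucose cells Rpl5 was at 0.24 and Rps6 at 0.19, and Rpl23 was not called (0.05, adjusted p = 0.383).

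Ratios within paralog pairs varied between groups. As a ratio of FPKM, Rpl22l1 to Rpl22 stood at 0.0143 in mimic, 0.0122 in mimic-control, 0.0257 in inhibitor, 0.0252 in inhibitor-control, 0.0110 in high-glucose and 0.00946 in vehicle cells. The pair's ratio was thus highest in both inhibitor groups. Rpl7l1 to Rpl7 stood at 0.326 in mimic, 0.352 in mimic-control, 0.150 in inhibitor, 0.157 in inhibitor-control, 0.140 in high-glucose and 0.128 in vehicle cells. Rps27l, a target of p53, to Rps27 stood at 0.959 in mimic, 0.979 in mimic-control, 0.887 in inhibitor, 0.888 in inhibitor-control, 1.23 in high-glucose and 1.12 in vehicle cells. These ratios are group means of deposited values, carry no test and were not taken with GC content and length corrected. With that correction Rpl22l1 was at 0.40 against 1.57 in inhibitor-control over high-glucose cells, and Rpl22 at 0.15 against 0.38. In the same comparison Rps27 was at -0.07 against 0.36. In mimic-control over high-glucose cells Rps27l was at -0.23 against 0.18. Rps4x rose by 0.53 in mimic-control and by 0.26 in inhibitor-control cells on the log2 scale, Rpl10 by 0.65 and 0.54, and Rpl3 by 1.02 and 0.12. With GC content and length corrected, in inhibitor-control over high-glucose cells Rpl10 was at 0.26 and Rps4x was not called (0.03, adjusted p = 0.505). In mimic-control over high-glucose cells that fit gave 0.36 for Rpl10 and 0.28 for Rps4x. The call of Rpl3 in inhibitor-control cells was lost under most of the libraries left out, with an adjusted p of up to 0.268, and under upper-quartile scaling Rpl3 was at 0.20. Rpl39l and Rps4l were not analysed here.

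Taken by the group with the highest mean, 36 members peaked in mimic cells and 38 in mimic-control cells, 2 in inhibitor, 3 in inhibitor-control and 1 in vehicle cells. The lowest mean fell in high-glucose cells for 54 members, in vehicle cells for 17, in inhibitor cells for 8 and in inhibitor-control cells for 1. The range of group means had a median of 0.92 on the log2 scale and reached 1 or more for 34 members. The most even members were Rpl41 (range 0.32), Rps15 (0.34) and Rpl23a (0.34), so that both Rps15 and Rpl23a, among the 5 highest by FPKM, changed little. Rps10 (2.50), Rpl22l1 (1.78), Rpl7l1 (1.64) and Rpl35 (1.52) had the widest range. This order is a description of the 80 members and was not tested. The same counts and ranges over all genes were not taken, so these patterns are not read as particular to the members.

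Fau, which encodes a fusion of a ubiquitin-like protein with a ribosomal protein, Rack1, a scaffold on the small subunit, and Rpl36al, a close relative of Rpl36a, lie outside the symbol rule and were tested in the same fit. All 3 rose in mimic-control over high-glucose cells, led by Rpl36al at 1.23 and Rack1 at 0.95 on the log2 scale. In inhibitor-control over high-glucose cells Rpl36al rose at 0.85 and Rack1 at 0.37, while Fau was at 0.13 and not called (adjusted p = 0.0643). All 3 fell in inhibitor-control against mimic-control cells. None of the 3 was called for the mimic, the inhibitor or high glucose.

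The gene lists that follow are read against the shares of all 15074 genes called. In mimic-control over high-glucose cells 39.0% of all genes rose and 39.9% fell, in inhibitor-control over high-glucose cells 40.1% rose and 39.3% fell, and in inhibitor-control against mimic-control cells 38.5% rose and 35.7% fell. With the mimic 15.8% rose and 18% fell, and in high glucose 12% rose and 12.2% fell.

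Translation factors and other genes known to carry a TOP tract made up another list. Of 21 tested, 16 rose and 2 fell in mimic-control over high-glucose cells, with Snhg1, a host gene of snoRNAs, at 3.12 and Npm1, a nucleolar histone chaperone, at 1.93 on the log2 scale. For inhibitor-control over high-glucose cells, 12 rose and 7 fell, with Snhg1 at 3.46 and Npm1 at 2.04. Against mimic-control cells, 5 rose and 13 fell in inhibitor-control cells, with Eef1g, a subunit of elongation factor 1, at -1.43. With the mimic 4 rose, led by Gas5 at 0.34, and 7 fell, led by Eef1g at -0.25. In high glucose 3 rose, among them Gas5 at 0.28 and Npm1 at 0.27, and none was called for the inhibitor.

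All 10 chaperones of ribosomal proteins and late assembly factors rose in mimic-control over high-glucose cells, with Rrp12 at 3.36 and Grwd1, a chaperone of Rpl3, at 2.79. Of the same genes, 8 rose and 1 fell in inhibitor-control over high-glucose cells, with Ltv1, which joins the precursor of the small subunit, at 1.76 and Grwd1 at 1.41. None rose and 8 fell in inhibitor-control against mimic-control cells. With the mimic, 3 fell, among them Rrp12 at -0.49 and Grwd1 at -0.37, and for both the mimic's effect minus the inhibitor's effect was called at -0.47 and -0.35.

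Of 14 genes that control TOP mRNAs, 11 rose and 2 fell in mimic-control over high-glucose cells, with Eif4ebp1, a repressor of cap-dependent translation that mTOR inactivates, at 1.49 and Tsc1, an inhibitor of mTOR signalling, at 1.44. For inhibitor-control over high-glucose cells, 9 rose and 4 fell, with Larp4 at 1.66. With the mimic 2 rose and 4 fell, among them Eif4ebp2 at -0.41 and Mtor at -0.35. Of 9 factors known at ribosomal protein promoters, Myc was at 2.49 in mimic-control and at 1.84 in inhibitor-control over high-glucose cells, and 7 and 6 of the 9 rose. With the mimic 2 rose, Gabpa at 0.29 and Gabpb2 at 0.25, and in high glucose 4 rose, led by Tbpl1 at 0.29.

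Mitochondrial ribosomal proteins serve the separate ribosome inside mitochondria. Of 77 tested, 62 rose and 7 fell in mimic-control over high-glucose cells (median 0.90), with Mrpl23 at 2.22 and Mrps18b at 1.78. In inhibitor-control over high-glucose cells 27 rose and 33 fell (median -0.04), with Mrps34 at -1.28, near the shares of all genes. In inhibitor-control against mimic-control cells 2 rose and 69 fell, with Mrpl38 at -1.66. With the mimic 2 rose and 27 fell, against 9 and 10 of 80 cytosolic members. The difference between mitochondrial and cytosolic genes was not tested.

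What the members share in sequence was read from the RefSeq promoters (GRCm38.p6, 250 bases before to 50 after each start), which were matched for 57 members that are not paralogs. The letters CTCTTTC, a form of the TOP tract, were found anywhere in this window, in the transcribed direction, in 13 of 57 promoters (22.8%). They were in 4.60% of all 27025 promoters and in 4.64% of those of the 10178 other tested protein-coding genes. CTTTTC, another such form, which CTCTTTC does not contain, was in 21.1% of the members' promoters and 12.9% of all. CCGGAAG, the core bound by the ETS factor GABPA, was in 42.1% on either strand, against 9.93% of all promoters and 19.6% of other tested genes. AAGATGG, the YY1 core, was in 15.8% on either strand, against 7.28% of all. These motifs were chosen after the promoters were read, so the shares are descriptions, and a match is not a site of action. A TOP tract lies at the start of the mRNA, so matches anywhere in the window do not give the share of genes with that tract.

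The windows below, of 30 bases each from GRCm39, are shown because their genes are named in the comparisons above. The capitals mark the CTCTTTC run.
Rpl35: ccccgccctttcCTCTTTCtctcgaaccag
Rpl28: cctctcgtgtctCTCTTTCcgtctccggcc
Rpl18: tctcgcaggccgCTCTTTCcccgcccactc
Rpl5: ggcctacagccaCTCTTTCtcacgtcgctt
Rpl6: cgctgccttagttCTCTTTCccgtcttgca
Rpl36a: gctctagcctctCTCTTTCcgagctgctag
Rpl26: tcgcgtgtagttCTCTTTCcttttgcggcc
The windows lie at chr2:38895126-38895155 (minus strand) for Rpl35, chr7:4795952-4795981 (plus strand) for Rpl28, chr7:45367484-45367513 (plus strand) for Rpl18, chr5:108048362-108048391 (plus strand) for Rpl5, chr5:121342584-121342613 (plus strand) for Rpl6, chrX:133486423-133486452 (plus strand) for Rpl36a and chr11:68792403-68792432 (plus strand) for Rpl26. In Rpl35 and Rpl28 the run begins 0 bases from the RefSeq start, that is at the first base of the transcript, and in Rpl18 it begins 1 base after it. In Rpl26, Rpl36a and Rpl6 it begins 23, 32 and 33 bases after the start, and in Rpl5 at -20, before it. Rpl11, named in the comparisons but not shown, has the run at -65, before its start. The 3 genes shown with the run at or 1 base after the start were not alike in inhibitor-control over high-glucose cells: Rpl35 was at 0.81, Rpl18 at 0.29 and Rpl28 at -0.36 on the log2 scale, while in mimic-control over high-glucose cells they were at 1.52, 1.28 and 0.81. Rpl35a, not shown, also has the run at 1 of its 3 RefSeq starts, and was at 0.53 in inhibitor-control and 0.92 in mimic-control over high-glucose cells.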

How the data were processed

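Stranded mRNA libraries were sequenced as paired reads, per the labels' protocols. Reads were trimmed with FASTX-Toolkit 0.0.13 and aligned to GRCm39 with HISAT2, and uniquely mapped reads were counted per gene, per the labels' protocols. The authors deposited raw counts per gene and FPKM, and the submitters' processing notes name DESeq2 without its role. The sources used here give no counter, annotation release or strand setting, so antisense overlaps and near-identical copies make counts uncertain.

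Counts were tested with edgeR 4.0.16 (quasi-likelihood, TMM) in R 4.3.3, with 1 term per group, 18 libraries and 12 residual degrees of freedom. filterByExpr (minimum count 10, minimum total 15) left 15074 of 29112 genes. Adjusted p-values are Benjamini-Hochberg values over these genes, called under 0.05, and SE is the log2 fold change over the root of F. The script was tested on simulated counts. Shares were compared with exact permutation tests (SciPy 1.17.1). Deposited FPKM were used for levels between genes only. Copies were found by BLAST 2.17.0 of coding sequences against GRCm39. Alternatives used DESeq2 1.42.0, mgcv 1.9.3 for the correction for GC content and length, other scalings, no filter, and libraries left out.

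Groups came from the labels. Replicate numbers did not pair the samples and were not used. The members, gene lists and comparisons were chosen with earlier results of these data known. In each comparison up to 5 called members in each direction with the largest log2 fold change were named, with the P stalk, p53-linked and paralog members, the 5 highest and lowest by FPKM and the 3 most even. Values of 3 genes are not reported here by name. Between replicates, chi-square per degree of freedom over genes was 4.37 to 26.1, so none was taken as 1 library deposited again. A count of 0 allows 3 reads, and this covers counting error only.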

Additional observations from a re-analysis of the deposited data

Results flagged for a closer look

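For 5 ribosomal protein genes the effect of the mimic over its control differed from the effect of the inhibitor over its control by a test of the difference itself (edgeR's interaction contrast, adjusted over 15074 genes). All 5 differences were positive, where 4.63% of all genes were called higher and 8.59% lower, so the members' share is near the background. The difference was 0.35 on the log2 scale for Rpl36a, 0.33 for Rpl39, 0.26 for Rps24, 0.22 for Rpl22 and 0.21 for Rpl21. All 5 were higher with the mimic in 3 of 3 libraries, and none was called with the inhibitor. Rpl36a and Rpl39 kept their call in all 26 alternatives run. Rpl21 lost it in 18 of 26 alternatives, Rps24 in 17 and Rpl22 in 10. Each effect uses its own control libraries, and the 2 controls differed from each other at 66 of 80 members, 5 higher and 61 lower, where 38.5% of all genes were higher and 35.7% lower.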

How the results depend on the processing

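Most values of named members stayed on their side of the threshold under the alternatives: 4109 did, 163 lost the call, 63 gained it and 7 reversed. The 4109 include values called in neither fit, whatever their direction, among them those for inhibitor against inhibitor-control cells. They are therefore not a count of calls kept. Of called values of named members, 71 moved by over 1.5 times or reversed, 40 of them with GC content and length corrected. Those bearing on a value in the comparisons stand beside it, and counts, medians and reversals are given below.

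With the mimic, 4 members were lower under upper-quartile scaling, 5 after correction for GC content and length and 2 under library totals alone, against 10; 25 were higher under library totals alone and 15 with the compared groups fitted alone, against 9; and the median log2 fold change was 0.072 under library totals alone. In high glucose over vehicle, 1 member was higher with no filter, with GC content and length corrected or by DESeq2, and 6 were lower with the compared groups alone. In mimic-control over high-glucose cells, GC and length correction gave a median of 0.69 and 4 members lower, and library totals alone a median of 0.66. In inhibitor-control over high-glucose cells, 2 were lower under upper-quartile scaling, and the median was 0.44 there and 0.26 with GC content and length corrected. In inhibitor-control over mimic-control cells, 8 members were higher under upper-quartile scaling and 11 under library totals alone, and the median was -0.37, -0.29, -0.51 with no filter and -0.37 with GC content and length corrected. For the mimic's effect minus the inhibitor's effect, 3 were higher with DESeq2 size factors, 12 under library totals alone, 3 with no filter, 8 with GC content and length corrected and 11 with the compared groups alone; 3 were lower with no filter, 2 with the compared groups alone and 3 by DESeq2; and the median was 0.10 under library totals alone. The cause was not tested.

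Values that reversed were, with GC content and length corrected, Rpl5 with the mimic (-0.038), Rps27l (-0.23) and Rpl7 (-0.092) in mimic-control and Rps27 (-0.070) and Rpl7 (-0.035) in inhibitor-control over high-glucose cells, and under library totals alone Rpl22 (0.055) and Rpl10 (0.073) in inhibitor-control over mimic-control cells. Library totals alone moved the median of all genes by -0.15 in mimic-control over high-glucose cells and by 0.22 in inhibitor-control over mimic-control cells, and upper-quartile scaling by 0.11 in inhibitor-control over high-glucose cells and by 0.15 in inhibitor-control over mimic-control cells.

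Leaving out 1 library at a time, with the mimic 6 to 10 members were higher and 4 to 15 lower, with a median of -0.040 to 0.033. With the inhibitor the median was -0.047 to -0.012 and 0 were called. In high glucose over vehicle 0 to 1 were higher and 3 to 15 lower, with a median of -0.094 to -0.022. In mimic-control over high-glucose cells 75 to 78 were higher and 0 to 1 lower, with a median of 0.80 to 0.88. In inhibitor-control over high-glucose cells 63 to 68 were higher and 2 to 6 lower, with a median of 0.33 to 0.42. In inhibitor-control over mimic-control cells 4 to 6 were higher and 59 to 63 lower, with a median of -0.50 to -0.46. For the mimic's effect minus the inhibitor's effect 2 to 5 were higher and 0 to 3 lower, with a median of -0.019 to 0.044, the reversed sign being without mimic replicate 1. The difference in share of reads was 0.199 to 0.393 percentage points with the mimic, -0.0705 to 0.0228 with the inhibitor, -0.262 to -0.112 in high glucose, 1.62 to 1.77 and 0.843 to 0.995 in mimic-control and inhibitor-control over high-glucose cells and -0.825 to -0.732 between the controls.

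Libraries of the same replicate number did not deviate together: the correlations of their residuals ran from -0.174 to 0.103, and 1 of 45 was over 0.1. With the replicate block, 3 members were higher for the mimic's effect minus the inhibitor's effect, and no other number of members called moved by over 1.5 times. Reading the results without mimic replicate 2 for its macrophage transcripts was chosen after seeing the data, and gave 4 members lower with the mimic. Depth limits mainly Rps10, with 9 to 87 reads per library, and Rpl3l.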
